A study of Caenorhabditis elegans with 6 samples.

Results

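Described here are 5 cuticle collagen genes of Caenorhabditis elegans, taken from 146 collagens that passed a filter on low values, of 179 in the table (all 5 genes passed): col-124, col-88, col-141 and col-137, named for their large differences between blmp-1 mutant and wild-type larvae, and col-19, the classical marker of adult epidermis. Both kinds of choice were made with the mutant-against-WT values known, so the differences of these 5 genes between the groups are given as a description, with no test. The study sequenced messenger RNA of mid-L3 larvae, the stage before the last larval one, bleach-synchronized and kept on NGM agar. There were 3 libraries from blmp-1(tm548), a strain with a mutant allele of blmp-1, and 3 from WT, the N2 Bristol strain. The labels name no treatment and do not say which part of the gene the allele removes. The libraries of a strain are called biological replicates, with nothing on how cultures were kept apart, so p-values measure only the spread between these samples, which may be technical.

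The cuticle is an exoskeleton of cross-linked collagens that the epidermis secretes anew before each molt. A large family of collagen genes is transcribed in waves during each larval stage, and some members are made for 1 stage only. The gene col-19 is switched on in the epidermis at the transition to adulthood, downstream of the heterochronic pathway and its zinc-finger factor LIN-29, and is used as the standard readout of that transition. BLMP-1, the worm relative of mammalian Blimp-1, is a zinc-finger transcription factor that acts in the epidermis and in developmental timing.

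Values are FPKM, fragments scaled to transcript length and to the number of mapped fragments. Differences are of log2(FPKM + 1), mutant minus WT. The depth, read from the steps between low values, was about 7470000 to 8020000 reads in mutant libraries and 7490000 to 8010000 in WT libraries. The blmp-1 transcript was at 40.3, 36.9 and 38.0 FPKM in mutant replicates 1, 2 and 3, against 64.9, 71.1 and 75.2 FPKM in WT replicates 1, 2 and 3 (log2 difference -0.86, limma adjusted p = 0.00299). WT replicate 3 stood apart from the other WT libraries in yolk genes and in 23 collagens, col-19, col-7 and col-62 among them, but not in the adult collagens bli-1 and bli-2. Abundant collagens lay close together: the means of 46 reached 180 FPKM, and the 8 highest lay between 229 and 238 FPKM. Listed genes of other kinds lay in the same band, such as asp-1 at 225, pdi-2 at 211 and unc-54 at 196 FPKM over all libraries. Whether high levels are compressed in these values was not tested, so levels of different genes there may not be comparable. The epidermal markers listed as a check were all present, with a summed level of 873 to 948 FPKM in mutant libraries and 929 to 1020 FPKM in WT libraries over 10 genes and 0 of them at 0 in all libraries. In RNA from many cells, fewer cells of a type and less RNA per cell cannot be told apart.

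The adult collagen col-19 (ZK1193.1) was at 51.4, 34.4 and 35.9 FPKM in mutant replicates 1, 2 and 3, against 101, 123.3 and 33.5 FPKM in WT replicates 1, 2 and 3. The groups overlapped, because WT replicate 3 lay below every mutant library while the other WT libraries lay well above. The means were 40.6 ± 9.39 FPKM in the mutant and 85.8 ± 46.7 FPKM in WT (SD, n = 3 each), and the log2 difference was -0.89 (SE 0.485). Without WT replicate 3 it was -1.46, and without WT replicate 2 it was -0.53, so single WT libraries set its size.

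The collagen col-124 (C24F3.6) had the largest difference of all tested collagens. It was at 11.1, 5.97 and 6.86 FPKM in mutant replicates 1, 2 and 3, against 157.6, 184 and 68.6 FPKM in WT replicates 1, 2 and 3. Every mutant library was far below every WT library, and WT replicate 3 was again the lowest of its group. The means were 7.97 ± 2.73 FPKM in the mutant and 136.8 ± 60.6 FPKM in WT (SD, n = 3 each), a ratio of 17.2 between WT and mutant, with a log2 difference of -3.86 (SE 0.406). In the reference annotation its exons overlap in part, on the opposite strand, with those of qns-1, a glutamine-dependent NAD synthetase gene. That gene was at 77.6 ± 5.11 FPKM in the mutant and 74.4 ± 4.50 FPKM in WT (log2 difference 0.06, limma adjusted p = 0.651). Whether the counting used strand is not given in the sources used here.

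The collagen col-88 (W05G11.3) was at 6.36, 4.73 and 5.62 FPKM in mutant replicates 1, 2 and 3, against 46.8, 23.4 and 26.2 FPKM in WT replicates 1, 2 and 3. The groups were apart, and here the high WT library was replicate 1, with replicates 2 and 3 alike. Means were 5.57 ± 0.815 FPKM in the mutant and 32.1 ± 12.8 FPKM in WT (SD, n = 3 each), with a log2 difference of -2.28 (SE 0.271).

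The collagen col-137 (Y51H4A.9) was the weakest of the 5. It was at 1.54, 1.98 and 1.52 FPKM in mutant replicates 1, 2 and 3, against 9.04, 6.89 and 4.89 FPKM in WT replicates 1, 2 and 3. The groups did not overlap, but few reads stood behind them: about 14, 18 and 13 in the mutant libraries and 82, 58 and 43 in the WT libraries. Means were 1.68 ± 0.259 FPKM in the mutant and 6.94 ± 2.08 FPKM in WT (SD, n = 3 each), and the log2 difference was -1.54 (SE 0.247). Because of the added 1 this scale understates the difference of so low a gene, whose means differed by a ratio of 4.12.

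The collagen col-141 (T15B7.5) was the only one of the 5 that was higher in the mutant. It was at 78.6, 80.7 and 49.7 FPKM in mutant replicates 1, 2 and 3, against 22.1, 12.6 and 9.10 FPKM in WT replicates 1, 2 and 3. The lowest mutant library was above the highest WT library. Means were 69.7 ± 17.3 FPKM in the mutant and 14.6 ± 6.71 FPKM in WT (SD, n = 3 each), a ratio of 4.78, with a log2 difference of 2.23 (SE 0.337). Transcription of col-141 and of its neighbour col-142 is known to respond to DBL-1, the worm's BMP-like body size signal.

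**Figure D1:**
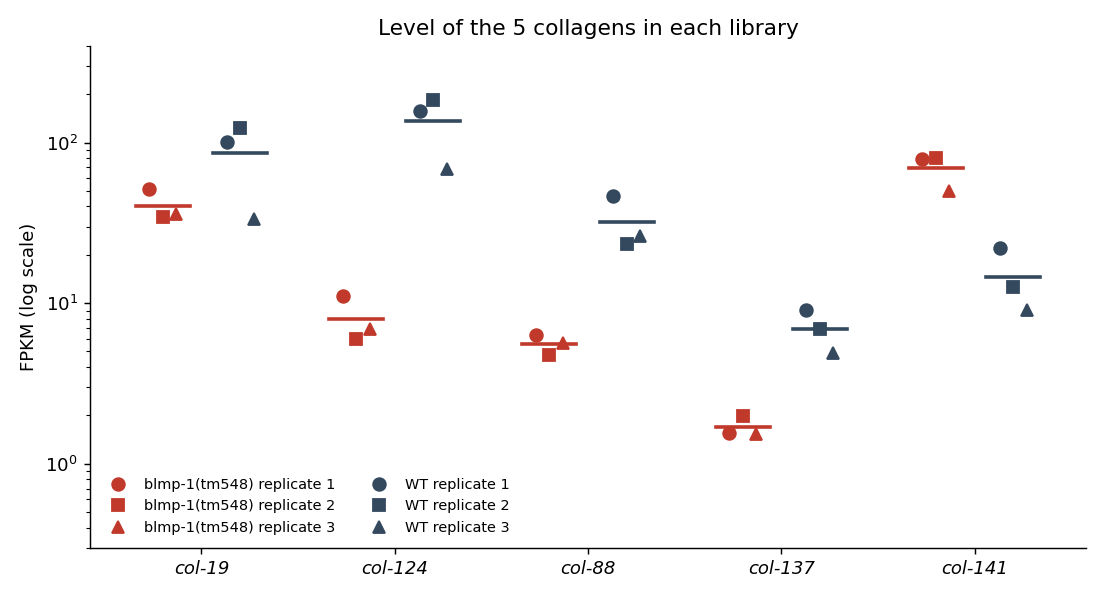
FPKM of the 5 collagens on a log axis, with 1 point per library, blmp-1(tm548) in red to the left of WT in dark blue, and a bar at each group's mean (n = 3). Points of the groups are apart for col-124, col-88, col-137 and col-141, and overlap for col-19, where WT replicate 3 is at 33.5 FPKM.

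Of the 5 genes, 4 had groups that did not overlap, where 28.7% of all tested features did so in either direction. The members were picked on this contrast, so nothing is read from that count. The order of levels differed between the strains. In the mutant it ran from col-141 through col-19, col-124 and col-88 down to col-137. The mutant ranges of col-141 and col-19 overlapped, as did those of col-124 and col-88. In WT the order was col-124, col-19, col-88, col-141 and col-137. There the ranges of col-124 and col-19 overlapped, as did those of col-19 and col-88, while col-88, col-141 and col-137 followed each other without overlap. In every WT library col-124 was above col-19, and in every mutant library it was below it.

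Among all tested collagens the size of the log2 difference placed col-124, col-88 and col-141 in ranks 1, 2 and 3 and col-137 in rank 5. Rank 4 was held by col-158 (D2023.7), which is not among the 5. It was at 13.05, 17.3 and 3.10 FPKM in mutant replicates 1, 2 and 3, against 1.89, 0.744 and 1.21 FPKM in WT replicates 1, 2 and 3 (log2 difference 2.19). Its groups were apart, with mutant replicate 3 much lower than the other mutant libraries. Just below col-137 came col-120 with a log2 difference of -1.32, col-45 with 1.29, col-123 with 1.21 and col-8 with -1.14. That of col-8 was -1.87 without WT replicate 3 (limma adjusted p = 0.0318) and -0.70 without WT replicate 2 (0.637). These ranks depended on single libraries and on the pseudocount. Without mutant replicate 3 the log2 difference of col-158 was 2.85 (limma adjusted p = 0.0121), larger in size than that of col-141 at 2.46 and of col-88 at -2.28. Without WT replicate 3, col-8 was past col-137 at -1.73. With a pseudocount of 0.1, col-158 at 2.79 was past col-88 at -2.45 and col-141 at 2.31, and col-45 at 2.32 was past col-141 and past col-137 at -1.95. The adult marker col-19 was in rank 12, chosen for its role and not for its size.

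Of the other collagens, 4 rose and 9 fell in the mutant by limma, and 128 did not pass (Benjamini-Hochberg adjusted p under 0.05 over 17058 features). That is 9.22% of them, beside 6.40% of all tested features, with 2.84% rising and 6.38% falling, beside 3.34% and 3.06% of all tested features. Scaling the libraries by the collagens themselves gave 5 that rose and 6 that fell, beside 520 and 314 of all tested features. In the main fit the median log2 difference of the other collagens was -0.07, beside 0.0009 for all tested features. The log2 differences of the other collagens that passed lay between -0.91 and 0.54. Those of col-124, col-88, col-141 and col-137 were larger in size, which follows from how these were chosen, so nothing is read from it. The collagen col-91 (F09G8.6) fell to 112 ± 4.51 FPKM in the mutant, against 180 ± 6.78 FPKM in WT (log2 difference -0.68, limma adjusted p = 0.00161). The collagen col-186 (E03G2.4) fell to 25.3 ± 1.86 FPKM in the mutant, against 46.0 ± 1.93 FPKM in WT (log2 difference -0.84, limma adjusted p = 0.00385). Also lower were col-162, col-115, col-153, col-61, col-76, col-180 and col-133. The 4 that rose were col-42, col-103, col-98 and col-113. Of these, col-113 (C34D4.15) was at 154 ± 10.5 FPKM in the mutant and 106 ± 9.54 FPKM in WT (log2 difference 0.54, limma adjusted p = 0.0184). The calls depended on single libraries. Without mutant replicate 1 or 2 or WT replicate 2, 0 of these collagens rose by limma, with 11, 10 and 16 higher at an unadjusted p under 0.05, and 3, 4 and 3 fell. Without mutant replicate 3, 7 rose and 22 fell. Without WT replicate 1, 5 rose and 5 fell, and without WT replicate 3, 4 rose and 8 fell. Over all features the main fit called 570 higher and 522 lower, and calls moved with the same libraries. Without mutant replicate 1 or 2 or WT replicate 2 there were 237, 209 and 192 higher and 179, 187 and 177 lower. Without mutant replicate 3 there were 620 higher and 712 lower. Without WT replicate 1 there were 526 and 391, and without WT replicate 3, 379 and 315. Only col-91, col-186 and col-162 of the 13 passed in each of the 6 fits that left out 1 library.

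**Figure D2:**
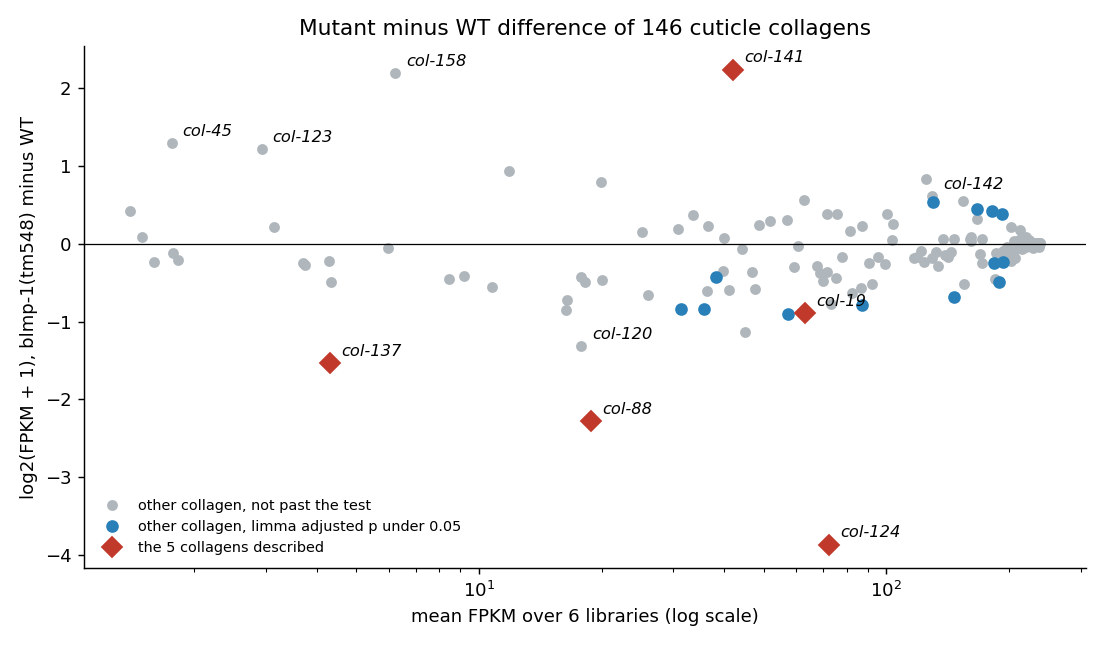
Difference of log2(FPKM + 1), blmp-1(tm548) minus WT, against the mean FPKM over 6 libraries on a log axis for all tested cuticle collagens. Red diamonds are the 5 collagens described and blue points are other collagens with a limma adjusted p under 0.05. The differences narrow toward 0 at the high end, where the 8 highest means lie between 229 and 238 FPKM, and col-124 stands lowest at -3.86.

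The spread of col-19 and col-124 within WT belonged to a wider pattern. In WT replicate 3, 23 of the tested collagens were under 0.5 of the mean of WT replicates 1 and 2, a limit set after the values were seen. Over all tested collagens the median of this ratio was 0.967. It was 0.299 for col-19 and 0.401 for col-124, while it was 0.525 for col-141, 0.613 for col-137 and 0.747 for col-88. Among the 23 were the adult collagens col-7 and col-62 and also col-8, col-81, col-129, col-143 and col-179. In the mutant, 19 of the 23 were above WT replicate 3 in each library, and 18 were below WT replicates 1 and 2 in each library. Only col-124 was below WT replicate 3 in each mutant library. Of the 23, none outside the members passed limma. The limit itself selects for a low WT replicate 3 and a wide WT spread. Nothing is therefore read from that outcome or from the counts of 19 and 18. Without WT replicate 3 the log2 differences of the members were -1.46 for col-19, -4.30 for col-124, -2.38 for col-88, -1.73 for col-137 and 1.96 for col-141.

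The adult collagen col-7 (C15A11.5) was at 16.8, 8.60 and 8.10 FPKM in mutant replicates 1, 2 and 3, against 27.1, 46.5 and 2.26 FPKM in WT replicates 1, 2 and 3. The adult collagen col-62 (C15A11.6) was at 19.8, 10.4 and 9.01 FPKM in mutant replicates 1, 2 and 3, against 26.3, 51.8 and 3.30 FPKM in WT replicates 1, 2 and 3. As with col-19, the groups of both overlapped and WT replicate 3 was the lowest of all 6 libraries. Means of the strut collagens of the adult cuticle lay on the other side, with groups that overlapped and with WT replicate 3 between the other WT libraries. They are bli-1, which is also on the epidermal list, at 25.5 ± 8.55 FPKM in the mutant and 14.5 ± 5.82 FPKM in WT, and bli-2, at 76.0 ± 22.5 FPKM in the mutant and 50.01 ± 7.12 FPKM in WT (SD, n = 3 each). By limma none of the 4 adult collagens besides col-19 passed, and 0 had an unadjusted p under 0.05 (adjusted p of 0.811, 0.809, 0.252 and 0.239 for col-7, col-62, bli-1 and bli-2). Of 3 dauer-stage collagens listed, col-2 and col-40 had rows in the table and both were too low to be tested.

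Yolk protein genes, which are transcribed in the adult intestine, varied with the same libraries. The summed level of vit-1 to vit-6 was 156, 72.2 and 122 FPKM in mutant replicates 1, 2 and 3, against 386, 532 and 124.2 FPKM in WT replicates 1, 2 and 3. WT replicates 1 and 2 were high, as for col-19. In this sum WT replicate 3 lay among the mutant libraries, whereas for col-19 it lay below them. The single yolk genes differed. For vit-1, vit-3, vit-4 and vit-5 every mutant library lay below every WT library, WT replicate 3 included, as for col-124. For vit-2 and vit-6 the groups overlapped, with WT replicate 3 among the mutant libraries. None of the 6 yolk genes was at 0 in all libraries and none passed limma, while 0 were higher and 4 lower at an unadjusted p under 0.05 (median log2 difference -1.86). The part of adult-stage RNA in the values of col-19 and col-124 was not tested. For markers of other tissues the summed ranges were 574 to 626 FPKM in mutant and 548 to 611 FPKM in WT libraries for body wall muscle, and 502 to 544 FPKM in mutant and 499 to 558 FPKM in WT libraries for intestine. For neurons they were 348 to 361 FPKM in mutant and 348 to 354 FPKM in WT libraries, for the germ line 367 to 395 FPKM in mutant and 319 to 385 FPKM in WT libraries, and for the pharynx 286 to 320 FPKM in mutant and 267 to 300 FPKM in WT libraries. No marker of these lists was at 0 in all libraries and 0 passed limma, with 0 at an unadjusted p under 0.05.

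**Figure D3:**
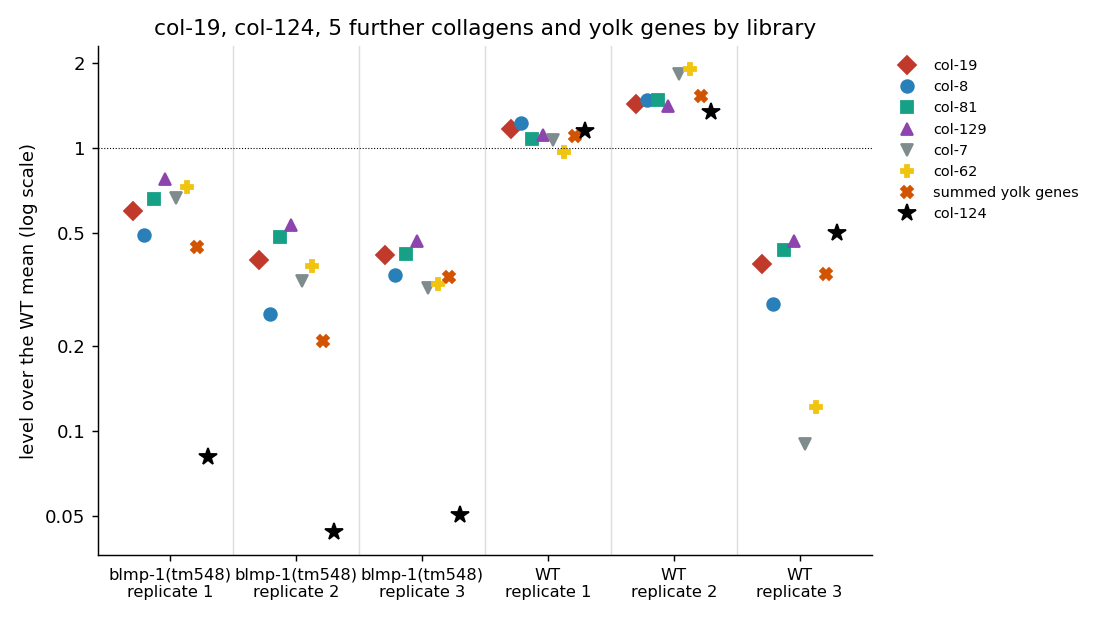
Level in each library divided by the gene's own WT mean, on a log axis, for col-19, col-124, 5 further collagens and the summed yolk genes, with 1 point per gene and library and mutant libraries on the left. WT replicate 3 is below WT replicates 1 and 2 for each of them, and col-124 (black stars) is lower in the mutant libraries, at 11.1, 5.97 and 6.86 FPKM, than in WT replicate 3, at 68.6 FPKM.

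Ratios between genes within a library do not depend on the library's scaling. The ratio of col-124 to col-19 was 0.216, 0.173 and 0.191 in mutant replicates 1, 2 and 3, against 1.565, 1.495 and 2.05 in WT replicates 1, 2 and 3. The groups were apart, WT replicate 3 included, where both genes were low. As col-124 was picked for its large difference on this contrast, separation in its ratios follows largely from that choice, and nothing is read from it. The mean ratio was 0.193 ± 0.0212 in the mutant and 1.70 ± 0.301 in WT (SD, n = 3 each), so WT stood 8.81 times above the mutant. Against the summed yolk genes the ratio of col-124 was 0.0711, 0.0828 and 0.0563 in mutant replicates 1, 2 and 3, against 0.409, 0.346 and 0.552 in WT replicates 1, 2 and 3, again apart. The ratio of col-19 to col-81 overlapped between the groups, at 0.811 ± 0.0717 in the mutant and 0.877 ± 0.0836 in WT, and those to col-8, col-129, col-7 and col-62 overlapped as well. The ratio of col-19 to col-139, also among the 23, was apart, at 0.560 ± 0.0334 in the mutant and 0.736 ± 0.107 in WT. That of col-19 to the summed yolk genes was apart and on the other side, at 0.367 ± 0.0968 in the mutant and 0.254 ± 0.0199 in WT (SD, n = 3 each). The ratio of col-88 to col-137 overlapped, at 3.40 ± 0.903 in the mutant and 4.64 ± 1.09 in WT. The ratio of col-124 to col-88 did not, at 1.41 ± 0.289 in the mutant and 4.62 ± 2.85 in WT (SD, n = 3 each).

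**Figure D4:**
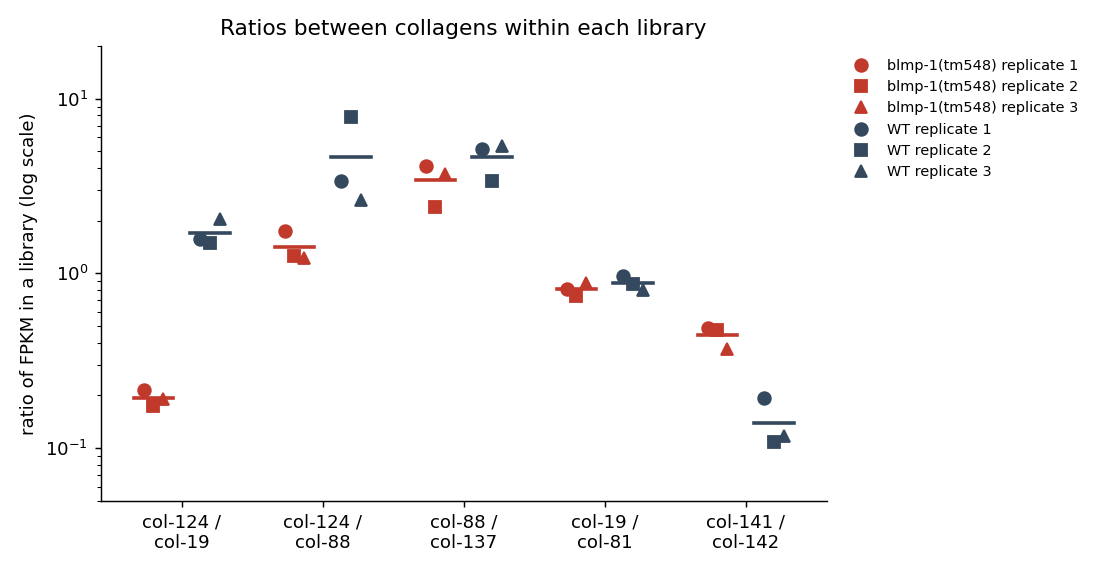
Ratio of the FPKM of a pair of collagens within a library, on a log axis, with 1 point per library, blmp-1(tm548) in red to the left of WT in dark blue, and a bar at each group's mean (n = 3). The ratio of col-124 to col-19 separates the groups, with means of 0.193 in the mutant and 1.70 in WT. That of col-19 to col-81 does not, with means of 0.811 in the mutant and 0.877 in WT. The members col-124 and col-141 were picked for large differences on this contrast, so separation in their ratios follows largely from that choice.

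The gene col-141 lies beside col-142 and close to col-143 in the reference annotation, all on the same strand. The neighbour col-142 (T15B7.4) was at 162, 172 and 135 FPKM in mutant replicates 1, 2 and 3, against 115, 116 and 77.8 FPKM in WT replicates 1, 2 and 3. Its groups were apart in the same direction as col-141, but it missed the threshold (log2 difference 0.61, limma adjusted p = 0.102). It passed with library weights (0.0291) and also with the replicate block, and over all alternatives its adjusted p was between 0.0291 and 0.266. The next collagen, col-143 (T15B7.3), was at 37.9, 25.1 and 27.9 FPKM in mutant replicates 1, 2 and 3, against 57.6, 77.9 and 12.02 FPKM in WT replicates 1, 2 and 3 (limma adjusted p = 0.803). It overlapped between the groups and followed the libraries as col-19 did. The ratio of col-141 to col-142 was 0.485, 0.470 and 0.367 in mutant replicates 1, 2 and 3, against 0.192, 0.108 and 0.117 in WT replicates 1, 2 and 3. The share of col-141 relative to its neighbour was higher in every mutant library than in every WT library. That follows largely from the choice of col-141 for its difference on this contrast. The levels of col-142 were higher, and whether high levels are compressed was not tested. The members col-19, col-124, col-88 and col-137 have no collagen among their nearest protein-coding neighbours. The span of col-19 overlaps that of hrg-11.4, on the opposite strand and with an exonic overlap of 0 nt. That gene was at 24.6 ± 0.597 FPKM in the mutant and 32.6 ± 4.93 FPKM in WT (limma adjusted p = 0.127). Of the neighbours tested, the closest to the threshold was spt-4 near col-88, with a log2 difference of -0.16 (limma adjusted p = 0.0504).

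Likeness of pattern was measured by Pearson's r of log2(FPKM + 1) over the 6 libraries, which share the contrast between strains, and is given as a description. The collagens most like col-19 were col-8 (r = 0.994), col-81 (0.991) and col-129 (0.985). Those most like col-124 were col-91 (0.986), col-53 (0.979) and col-133 (0.971). For col-88 they were col-91 (0.968), col-137 (0.965) and col-124 (0.954), and for col-137 they were col-124 (0.967), col-88 (0.965) and col-91 (0.960). For col-141 they were col-103 (0.989), col-98 (0.989) and col-176 (0.979). The members col-124, col-88 and col-137 had r between 0.95 and 0.97 with each other. They were picked for large differences on this contrast and each fell, so high values follow largely from that choice. Within WT replicates 1, 2 and 3, col-124 was at 157.6, 184 and 68.6 FPKM and col-88 at 46.8, 23.4 and 26.2 FPKM. The value between col-19 and col-124 was 0.77, and that between col-124 and col-141 was -0.86.

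Over protein-coding genes of at least 300 nt, those most like col-19 were ZK686.1 (r = 0.995), col-8 and Y57G11B.5 (0.991). For col-124 they were ugt-67 (0.998), a UDP-glucuronosyltransferase gene, F43H9.4 (0.998) and T02D1.8 (0.997). For col-88 they were F59F5.5 (0.996), sqr-1 (0.995), which encodes a sulfide quinone oxidoreductase, and pud-3 (0.995). For col-141 they were R05H10.1 (0.999), the astacin protease gene nas-33 (0.998) and ZC513.14 (0.997). For col-137 they were slc-25A18.1 (0.996), the ground-like gene grl-13 (0.995) and K03H9.3 (0.993). The measure takes no account of size: slc-25A18.1 lay between 96.1 and 99.0 FPKM in mutant libraries and between 108 and 114 FPKM in WT libraries, a far narrower difference than that of col-137. High values were common with so few libraries: of 14974 such genes, 85 reached an r of 0.95 with col-19, 300 with col-124, 250 with col-88, 321 with col-141 and 298 with col-137.

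Upstream of col-19, a list of 20 timing and epidermal regulators was tested, and by limma 0 rose, 2 fell and 18 did not pass, beside 3.34% rising and 3.06% falling over all features. At an unadjusted p under 0.05, 2 were higher and 2 lower. The genes that fell were blmp-1 itself and bed-3, whose product, a BED-type zinc-finger protein, is required in molting. The transcript of bed-3 was at 31.3 ± 10.2 FPKM in the mutant and 72.3 ± 10.04 FPKM in WT (log2 difference -1.22, limma adjusted p = 0.0326), and its call was lost in 5 of the 6 fits that left out 1 library (adjusted p of 0.0109 to 0.129 over the 6). The transcript of lin-29, the direct activator of col-19, was at 60.3 ± 5.88 FPKM in the mutant and 66.1 ± 8.28 FPKM in WT (log2 difference -0.13, limma adjusted p = 0.551). Its co-factor gene mab-10 was at 47.4 ± 9.22 FPKM in the mutant and 44.5 ± 2.90 FPKM in WT (limma adjusted p = 0.816). The heterochronic genes lin-14, lin-41 and hbl-1 had log2 differences of 0.19, 0.06 and -0.06, with limma adjusted p of 0.131, 0.799 and 0.752. The largest rise of the list was that of nhr-23, at 62.5 ± 8.62 FPKM in the mutant and 44.7 ± 1.38 FPKM in WT. Its groups were apart, and it just missed the threshold (log2 difference 0.47, limma adjusted p = 0.0536). It passed with library weights (0.00574), at a minimum mean of 5 FPKM (0.0473) and with upper quartile scaling (0.0482). In the other settings that kept all libraries it did not pass. Over the 6 fits that left out 1 library its adjusted p was 0.0211 to 0.182.

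Among 15 tested genes for modifying, folding and processing collagens, 1 passed limma as lower, 0 as higher and 14 neither way, beside 3.06% lower and 3.34% higher over all features. At an unadjusted p under 0.05, 1 was higher and 2 were lower. The gene that fell was bli-5, a protease inhibitor gene of cuticle formation, at 38.4 ± 4.42 FPKM in the mutant and 68.7 ± 7.02 FPKM in WT (log2 difference -0.82, limma adjusted p = 0.0127). Its call was lost in 2 of the 6 fits that left out 1 library (adjusted p of 0.0143 to 0.0627 over the 6). The prolyl 4-hydroxylase gene phy-2 was at 90.5 ± 6.39 FPKM in the mutant and 101 ± 3.75 FPKM in WT (limma adjusted p = 0.192), and its partner gene dpy-18 at 126 ± 10.1 FPKM in the mutant and 138 ± 6.96 FPKM in WT (0.304). Of the 10 epidermal markers, 2 fell, beside 3.06% of all features, and 0 rose, with 1 higher and 2 lower at an unadjusted p under 0.05. One of them, che-14, which acts in apical secretion, fell to 8.56 ± 2.49 FPKM in the mutant, against 28.1 ± 3.14 FPKM in WT (log2 difference -1.63, limma adjusted p = 0.0108). The hedgehog-related gene wrt-2 fell to 48.2 ± 13.4 FPKM in the mutant, against 114 ± 19.2 FPKM in WT (log2 difference -1.24, limma adjusted p = 0.0260). The other 8 did not pass. The call of che-14 was lost in 1 and that of wrt-2 in 4 of the 6 fits that left out 1 library (adjusted p up to 0.0568 and 0.109).

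Replicates of the 5 collagens spread more than those of the median collagen, but not all more than the median of collagens at low levels. Within WT their coefficients of variation were 54.4% for col-19, 46.0% for col-141, 44.3% for col-124, 39.8% for col-88 and 30.0% for col-137. The median over all tested collagens was 8.77%, and over the 71 with a mean under 100 FPKM, where all 5 belong, it was 33.9%. Within the mutant they ran from 14.6% for col-88 to 34.2% for col-124, beside medians of 12.7% over all tested collagens and 23.6% over the 71. In the mutant col-88, col-137 (15.4%) and col-19 (23.2%) were under the latter median. The direction of each difference held in every alternative setting run. For col-124, col-88, col-137 and col-141 that says little. With groups that do not overlap, no left-out library, pseudocount, library weight or replicate block could turn it.

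**Figure D5:**
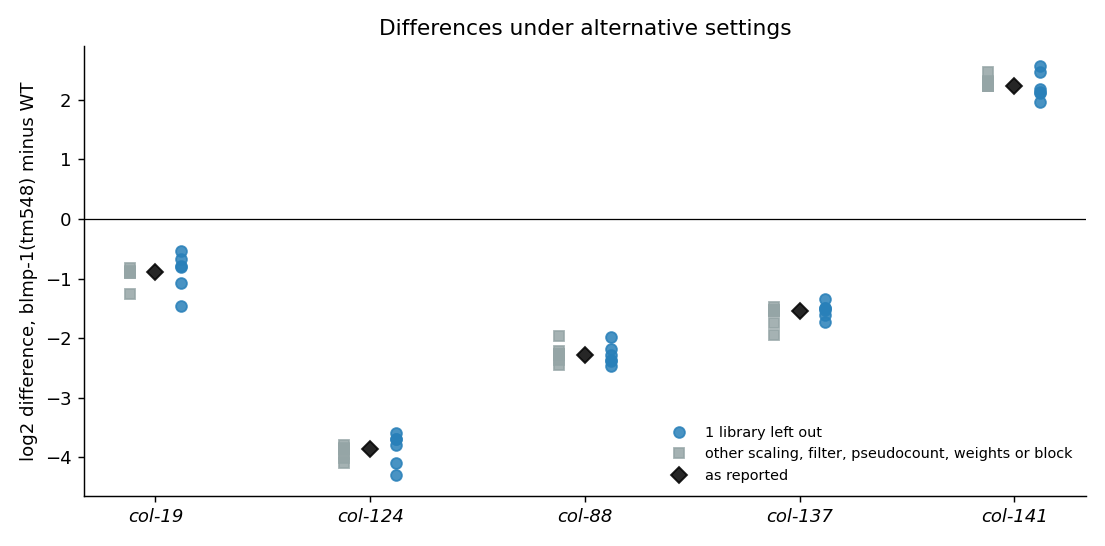
Log2 difference of each collagen, blmp-1(tm548) minus WT, as reported (black), with 1 library left out (blue) and with other scalings, filters, pseudocounts, weights or a replicate block (grey). Points of a gene stay on 1 side of 0, and those of col-19 run from -1.46 to -0.53 when 1 library is left out. For the other genes, whose groups do not overlap, leaving out a library could not change the side.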

How the data were processed

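All 6 libraries share 1 table of FPKM values, which the authors deposited. Per the submitters' processing notes, TopHat2 2.0.7 was used, with Cuffdiff and Cufflinks 2.0.2. Not given in the sources used here: the genome build and annotation, so no coordinates are printed. Symbols, lengths, strands and neighbours came from WBcel235 tables, which matched 44880 of 45343 features. The 17058 features averaging 1 FPKM or more over all libraries entered a limma fit (3.58.1, R 4.3.3) of log2(FPKM + 1) on strain alone, with trended variance priors; p-values were adjusted by Benjamini-Hochberg over all of them. Read numbers are estimates from steps between low FPKM values of single-isoform genes of 1000 to 4000 nt, with no interval built on them. No share of all features at an unadjusted p under 0.05 is given, so nothing is read from counts of genes at that limit. Members and gene lists were chosen with earlier results of these data known. Named genes are the members, their neighbours in rank and on the chromosome, the 3 most alike genes per member, called genes of the regulator and processing lists, and stage collagens. Genes named in any list beyond that rule were chosen after their values were seen. Alternatives were other pseudocounts (0.1, 0.5), dropping the filter or raising it to 5 FPKM, a replicate block, library weights, 3 scalings and leaving out each library. The comparisons in the report carry no block, since the labels share replicate numbers only; the fit with the block is an alternative.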

Additional observations from a re-analysis of the deposited data

How the results depend on the processing

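All 5 collagens kept their direction in the settings run, which most of these settings could not have changed for any but col-19. Of 74 values, 73 moved by less than 1 SD of the replicates. The exception was col-137 with a pseudocount of 0.1, at -1.95. With 1 library left out, the log2 difference was between -1.46 and -0.53 for col-19, -4.30 and -3.59 for col-124, -2.46 and -1.98 for col-88, 1.96 and 2.56 for col-141, and -1.73 and -1.35 for col-137, which was not tested at a minimum mean of 5 FPKM. Over all features 570 were called higher and 522 lower. Library weights gave 2005 and 2112, and with them 17 of the other collagens rose and 39 fell. Scaling by the other collagens gave 520 higher and 314 lower, and the cause of both shifts was not tested. Leaving out 1 library, which lowers the number of samples, gave 192 to 620 higher and 177 to 712 lower, and 0 to 7 higher and 3 to 22 lower among the other collagens. Single genes named among the lists and other collagens kept their side of the threshold in 299 of 373 values, lost it in 59 and gained it in 15, with 0 reversed. Deviations of same-numbered libraries correlated at 0.13, -0.04 and 0.07 for replicates 1, 2 and 3, and not every library correlated best with its own number. With the replicate block 504 features were higher and 425 lower, 5 of the other collagens rose and 8 fell, and col-142 passed (limma adjusted p = 0.0311). The depth leaves col-137 with few reads.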
